A study of Mus musculus with 12 samples.

Results

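Gene deserts were studied as the 232 autosomal 1 Mb bins of the mouse genome (mm10) that hold no transcription start site (TSS) of a protein-coding gene and at least 1 interaction anchor in Hi-C of embryonic stem cells. They are 232 of 2398 autosomal bins with such anchors and 9.66% of their called bases. Of the 232, 2 are shorter than 1 Mb, at the ends of chromosomes 2 and 12, and 2 have less than 90% called bases. The other 2166 bins hold a TSS and are called TSS bins. Of 294 autosomal bins without a TSS, 62 had no ESC Hi-C anchor and were left out, 60 of them without any called base. The bins were compared by Hi-C, which counts ligated pairs of DNA fragments, and by HiChIP, in which the same kind of library is enriched with an antibody against FGFR1, a fibroblast growth factor receptor that also enters the nucleus, or CTCF, a DNA-binding protein found at the base of many chromatin loops. The cells were E14Tg2A mouse embryonic stem cells (ESC), kept with 100 U/mL of LIF, and neuronal committed cells (NCC), the same line after 48 h in 1 µM retinoic acid without LIF. Every assay was made on 2 biological replicates in both cell types, which were merged into 1 table each, 6 in all, so there is no replicate error and no test. All intervals are 95% intervals. They cover counting error, or the spread of a median over bins, and bins of 1 library are not replicates.

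Gene deserts are long stretches without protein-coding promoters. They are usually poor in G and C, replicate late and lie at the nuclear periphery in many cell types, in the inactive type of chromatin compartment, where loci tend to contact other inactive loci. Some deserts beside developmental genes hold enhancers that act over long distances, and others hold mainly long non-coding RNA (lncRNA) genes or nothing that is annotated.

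The autosomal read pairs numbered 20643821 in ESC Hi-C and 21142644 in NCC Hi-C, against 1049415 to 3177422 in the 4 HiChIP tables. A read pair joins 2 anchors, or lies inside a single anchor, and each of its ends was counted in the bin of the midpoint of its anchor. Anchors are stretches between GATC sites that were called from the reads of each table, so that DNA outside anchors has no value. The deserts received 932710 of 41287642 ends in ESC Hi-C and 846442 of 42284728 in NCC Hi-C. They received 246465 and 388220 ends in FGFR1 HiChIP and 98354 and 100955 in CTCF HiChIP, in ESC and NCC.

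The sequence of the deserts differed from that of TSS bins in ways the rule did not use. Their median GC content was 37.3% (interval 37.1 to 37.6) against 42.2% (41.99 to 42.4) in TSS bins. Soft-masked repeats made up 42.5% of a desert at the median and 30.8% of a TSS bin. CpG dinucleotides numbered 5.0 per kb against 8.51 per kb. The GATC sites, at which the restriction enzyme cut, were slightly more frequent in deserts, at 2.51 per kb (2.49 to 2.54) against 2.46 (2.455 to 2.469). The CTCF consensus, searched on both strands, was absent from 68 of 232 deserts (29.3%) and from 125 of 2166 TSS bins (5.77%). No lncRNA gene started in 92 deserts. The body of a protein-coding gene that starts elsewhere reached into only 26 deserts, with less than 50% of the bases in 18 of them and 50% or more in 8, and 206 deserts held no base of such a gene.

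The deserts lay on all 19 autosomes, from 3 on chromosome 19 to 23 on chromosome 3. Their share of the bins of a chromosome was lowest on chromosome 9 (4.10%) and highest on chromosome 14 (15.7%). They formed 168 stretches, of which 121 were single bins, 33 were runs of 2, 11 were runs of 3 and 3 were runs of 4. The 3 longest were chr14:89000001-93000000 between Pcdh20 and Pcdh9, genes of protocadherin adhesion proteins, chr8:49000001-53000000 between Tenm3, a teneurin adhesion gene, and Aga, and chr18:26000001-30000000 between Celf4, an RNA-binding protein of neurons, and Pik3c3. Their flanking TSSs were 5.41, 4.67 and 4.52 Mb apart.

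Of 310 genes that flanked a desert or a run, 65 were on a list of cadherins, protocadherins, contactins, ephrin receptors, teneurins and similar genes, to which 310 of 20780 autosomal protein-coding genes belong. They flanked 115 of the 232 deserts (49.6%). Genes of developmental regulators, among them Myc, Gata3, Meis1, Zeb2, Nr2f1 and Nr2f2, flanked 21 deserts, from a list of 151 of these genes. Clustered receptor and defence genes flanked 3, from a list of 1973, with some deserts counted under more than 1 list. The other 95 deserts had no listed gene on either side. Deserts of a run share their flanking genes, which can lie more than 1 Mb from a given desert, and no test was made.

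The sequences at the start of 4 anchors show the range of DNA that the tables cover in deserts. The first 2 are the strongest ESC Hi-C anchors of deserts with many ends, and the others are the strongest anchors of the deserts with the largest gain and the largest loss of Hi-C ends in NCC. The first 120 bases of each are given on the plus strand of GRCm38, 5′ to 3′, with GATC sites in capitals.
Anchor between Dok5 and Cbln4, chr2:171982776-171982895: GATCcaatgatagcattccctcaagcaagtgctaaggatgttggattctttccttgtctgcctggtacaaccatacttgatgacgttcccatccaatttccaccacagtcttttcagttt
Anchor between Myc and Gsdmc, chr15:62132852-62132971: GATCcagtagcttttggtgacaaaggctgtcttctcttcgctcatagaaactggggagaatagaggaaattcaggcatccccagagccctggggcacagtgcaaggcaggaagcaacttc
Anchor between Sel1l and Flrt2, chr12:94924655-94924774: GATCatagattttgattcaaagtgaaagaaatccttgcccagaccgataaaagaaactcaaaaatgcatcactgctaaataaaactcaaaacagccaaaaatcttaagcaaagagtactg
Anchor between Igfbp7 and Adgrl3, chr5:78809909-78810028: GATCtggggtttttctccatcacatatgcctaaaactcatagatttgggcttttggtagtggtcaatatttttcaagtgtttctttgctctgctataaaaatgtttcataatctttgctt
The first 2 anchors span 15030 and 18125 bases with 47.9% GC each and held 851 and 978 ends in ESC Hi-C. The anchor between Sel1l and Flrt2 spans 6968 bases with 36.2% GC and held 149 ends in NCC Hi-C, and the anchor between Igfbp7 and Adgrl3 spans 5838 bases with 36.2% GC and held 121 ends in ESC Hi-C.

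Deserts held fewer ends per kb of called bases than TSS bins in all 6 tables. In ESC Hi-C the median desert had 3.12 ends per kb (interval 2.66 to 3.58) and the median TSS bin 15.8 (15.03 to 16.4), a ratio of 0.198. In NCC Hi-C the medians were 2.86 (2.46 to 3.19) and 16.2 (15.5 to 17.2), a ratio of 0.176. The gap was smaller in HiChIP. FGFR1 HiChIP had medians of 1.07 and 2.21 in ESC and 1.73 and 2.76 in NCC, with ratios of 0.485 and 0.627. CTCF HiChIP had 0.407 and 0.987 in ESC and 0.428 and 0.873 in NCC, with ratios of 0.412 and 0.490. The desert median was below the TSS-bin median on 19 of 19 chromosomes in each table.

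TSS bins of 1 or 2 genes lay between the deserts and the other bins, with a median of 6.14 ends per kb in ESC Hi-C. The desert median was 0.509 of theirs in ESC Hi-C and 0.475 in NCC Hi-C, and 0.697 to 0.795 of theirs in HiChIP. The deserts varied widely among themselves. From the lowest to the highest desert, ESC Hi-C ran from 0.033 to 20.2 ends per kb, and NCC FGFR1 HiChIP ran from 0.037 to 3.86. No end fell in 1 of the 232 deserts in ESC FGFR1 HiChIP, and each of the other 5 tables had ends in all 232.

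GC content moved with this difference, and the gap was smaller between bins of the same GC. Across the 232 deserts the Spearman correlation of GC content with ends per kb was 0.55 in ESC Hi-C and 0.26 in NCC FGFR1 HiChIP, as a description of bins that share their library. In bands of 1 percentage point of GC from 36% to 42%, which hold 218 deserts, the desert median in ESC Hi-C was 0.702 to 0.879 of the TSS-bin median. In the band from 36% to 37%, 86 deserts had a median of 2.04 ends per kb and 72 TSS bins had 2.53. Medians per band were also averaged for both classes, weighted by the number of deserts in each band. For this the end bands were open, below 37% and from 42% up. The last held 9 deserts and 1123 TSS bins, of up to 44.6% and 53.7% GC, so GC is matched only loosely there. Bins of the same GC, in what follows, are bins of the same band. The ratio of the averages was 0.746 in ESC Hi-C (3.99 and 5.35 ends per kb) and 0.709 in NCC Hi-C. It was 0.817 and 0.860 in FGFR1 HiChIP and 0.801 and 0.832 in CTCF HiChIP. In the bands from 36% to 42%, deserts were lower in 6 of 6 in each table other than NCC CTCF HiChIP, in which they were lower in 5. Repeat content also moved with the level, with a correlation of -0.34 in ESC Hi-C and -0.50 in NCC Hi-C. The part of either in the difference was not tested.

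**Figure D1:**
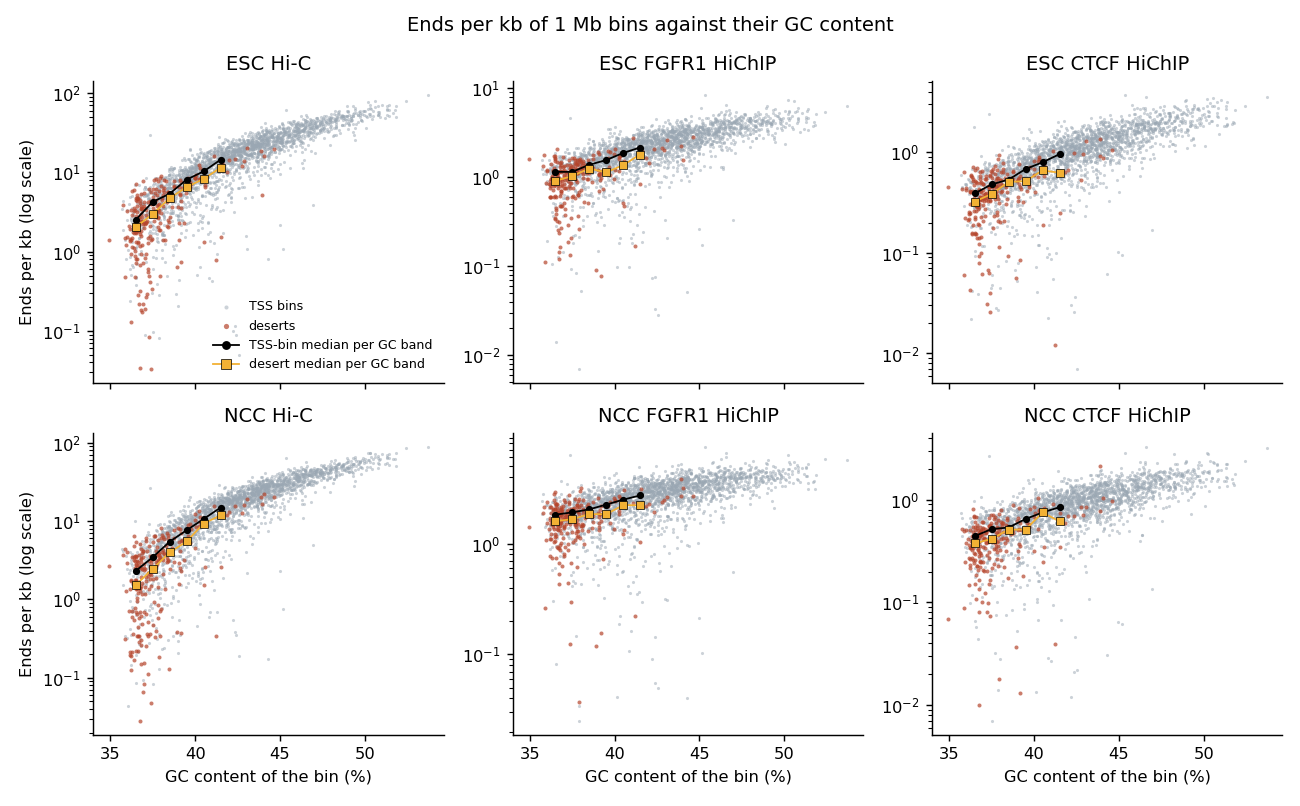
Ends per kb of called bases (log scale) against GC content (%), 1 point per 1 Mb bin, for the 232 deserts and the 2166 TSS bins in each table; bins with no end are not drawn. Lines join medians in bands of 1 percentage point of GC from 36% to 42%. Deserts lie at the low end of GC, where TSS bins are also low. Their medians are 0.653 to 1 times those of TSS bins in the same band.

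Anchors covered less of the deserts. In ESC Hi-C anchors covered 17.6% of the called bases of the median desert (interval 15.3 to 20.2) and 43.8% of the median TSS bin. In NCC Hi-C the coverage was 16.5% and 44.6%. FGFR1 HiChIP, with far fewer read pairs, covered as much of the median desert in ESC (17.8%) and more in NCC (24.9%), and CTCF HiChIP covered 12.2% and 14.2%. With every table thinned to the depth of the smallest, by calculation over the anchors already called, the expected coverage of the median desert was 15.1% and 13.8% in Hi-C, 17.6% and 24.7% in FGFR1 HiChIP and 12.2% and 14.2% in CTCF HiChIP. Anchors were called at full depth, so this covers only the detection of called anchors. Both the number of anchors and the ends per kb of anchor were lower in deserts. The median desert held 64 anchors per Mb in ESC Hi-C and the median TSS bin 117, and the medians were 18.1 and 36.1 ends per kb of anchor.

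Windows of 50 kb, pooled over the deserts, held fewer ends the further they lay from the nearest TSS. In ESC Hi-C, the median was 10.7 ends per kb under 100 kb from a TSS (58 windows), 6.38 at 100 to 250 kb, 4.11 at 250 to 500 kb, 2.48 at 500 kb to 1 Mb and 1.68 at 1 Mb or more (1411 windows). GC content went over the same windows from 41.0% to 36.9%. Near and far windows come in part from different deserts, and no profile inside single deserts was computed. Windows of TSS bins at 500 kb to 1 Mb from a TSS had a median of 2.54 (interval 2.24 to 2.84), and those of deserts 2.48 (2.22 to 2.66), which overlap. In NCC Hi-C they had 2.36 (2.12 to 2.64) and 1.68 (1.52 to 1.84), which do not. In NCC Hi-C the same desert windows fell from 10.6 to 1.48. The nearest and the farthest windows differed less in HiChIP, with 1.68 and 0.84 in ESC FGFR1, 2 and 1.54 in NCC FGFR1, 0.73 and 0.32 in ESC CTCF and 0.47 and 0.34 in NCC CTCF. In both NCC HiChIP tables the highest median was at 100 to 250 kb, at 2.06 for FGFR1 and 0.54 for CTCF. The share of windows with no end went over these distances from 10.3% to 22.8% in ESC Hi-C and from 5.17% to 27.3% in NCC Hi-C.

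**Figure D2:**
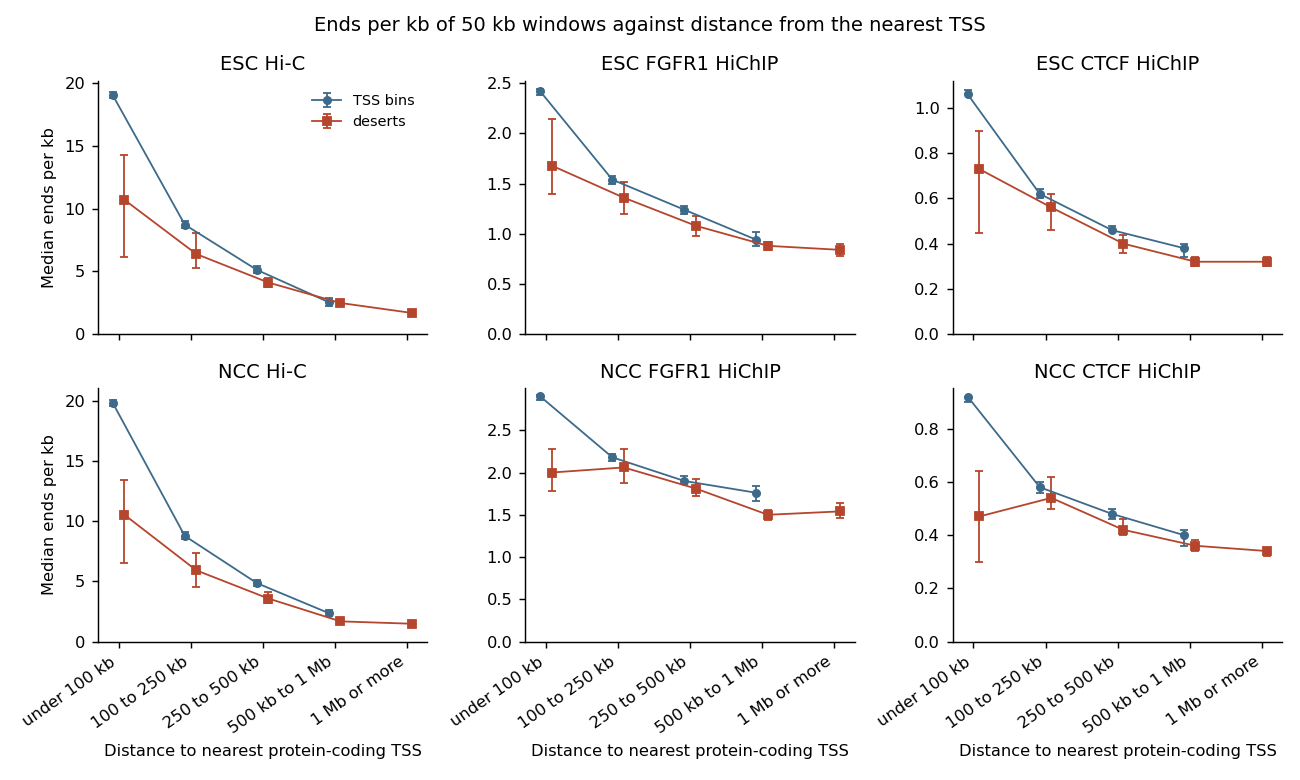
Median ends per kb of 50 kb windows (vertical axis, from 0) by distance to the nearest protein-coding TSS, in deserts and in TSS bins, with 95% intervals of the median as bars. In ESC Hi-C the desert medians fall from 10.7 to 1.68, and at 500 kb to 1 Mb the intervals of deserts and TSS bins overlap there but not in NCC Hi-C. At shorter distances they overlap in neither Hi-C table, with deserts lower.

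The 5 deserts with the most ESC Hi-C ends per kb were all rich in GC for a desert, with 41.1% to 44.6%. The highest, chr2:171000001-172000000, lies between Dok5, a docking protein of receptor tyrosine kinases, and Cbln4, a secreted synaptic organizer. It held 20.2 ends per kb in ESC Hi-C, 18.9 in NCC Hi-C, 2.59 and 2.62 in FGFR1 HiChIP and 1.29 and 0.853 in CTCF HiChIP. The desert chr18:81000001-82000000 between Sall3 and Galr1 held 19.5 and 20.5 in Hi-C. Between Plekhb2 and Hs6st1, chr1:35000001-36000000 held 18.5 and 20.4. Between Zfp516 and Tshz1, a zinc finger gene of development, chr18:83000001-84000000 held 16.1 in ESC and 22.0 in NCC Hi-C. The fifth, chr15:62000001-63000000, lies between Myc, the growth-control transcription factor, and Gsdmc, and contains the start of the lncRNA gene Pvt1. It held 16.0 and 15.5 in Hi-C, 2.79 and 2.34 in FGFR1 HiChIP and 1.03 and 0.913 in CTCF HiChIP. These 5 deserts were thus at the level of a median TSS bin or above it in ESC Hi-C.

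At the other end, chr8:6000001-7000000 and chr8:7000001-8000000, adjacent deserts between Slc10a2, an ileal bile acid transporter, and Efnb2, an ephrin ligand, held 34 and 33 ends in ESC Hi-C, each in 1 anchor. Their NCC Hi-C ends numbered 28 and 47, while FGFR1 HiChIP, at a fraction of the depth, held 145 and 352 in ESC and 427 and 669 in NCC. The desert chr3:140000001-141000000 between Stpg2 and Pdha2 held 84 ends in ESC and 1358 in NCC Hi-C. The desert chr14:112000001-113000000 between Slitrk5, a synaptic adhesion gene, and Tpm3-rs7 held 130 and 190, and chr3:77000001-78000000 between Fstl5 and Rapgef2 held 175 and 489. In the 5 deserts at the bottom, the strongest anchor made up 28.5% to 100% of the ESC Hi-C ends. Over all deserts it made up 5.53% at the median, and more than 20% in 15 deserts.

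Windows of 10 kb in deserts that held the start of a lncRNA gene had more ends than windows with neither such a start nor the CTCF consensus. The 347 windows averaged 8.73 ends per kb in ESC Hi-C and 9.33 in NCC Hi-C, against 3.95 and 3.56 in 22279 windows with neither, ratios of 2.21 and 2.62. The ratios were 1.44 and 1.35 in FGFR1 HiChIP and 1.54 and 1.40 in CTCF HiChIP. In TSS bins they were 1.74 and 1.72 in Hi-C, lower than in deserts. They were 1.52 and 1.39 in FGFR1 HiChIP and 1.65 and 1.59 in CTCF HiChIP, higher than in deserts. The GC content of the desert windows was 39.7% and 37.8%, and its part in these ratios was not tested. Deserts with a lncRNA start had a median of 3.59 ends per kb in ESC Hi-C and deserts without one 2.28.

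The deserts held 393 CTCF consensus sites. Windows with a site had 1.19 times the ends per kb of windows with neither feature in CTCF HiChIP of both cell types, and 1.59 and 1.57 times in Hi-C of ESC and NCC. In TSS bins, the ratios were 1.72 and 1.71 in CTCF HiChIP and 1.75 in both Hi-C tables. An anchor held the site in 68 of 393 cases (17.3%) in ESC CTCF HiChIP and in 80 (20.4%) in NCC CTCF HiChIP. It did so in 126 (32.1%) and 109 (27.7%) in Hi-C and in 90 (22.9%) and 101 (25.7%) in FGFR1 HiChIP. Anchors covered 12.2% and 14.2% of the median desert in CTCF HiChIP, 17.6% and 16.5% in Hi-C and 17.8% and 24.9% in FGFR1 HiChIP. Deserts held 0 to 31 sites each, so this coverage is not the share expected for sites. The GC content was 39.2% in windows with a site and 37.8% in windows with neither feature, and its part was not tested. Among the sites in anchors with many CTCF HiChIP ends, 4 are shown with 10 bases on each side, 5′ to 3′ on the strand of the site, with the consensus match in capitals.
Site between Lrrtm3 and Reep3, minus strand, chr10:66814653-66814684: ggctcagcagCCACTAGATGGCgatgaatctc
Site in the same desert, plus strand, chr10:66853366-66853397: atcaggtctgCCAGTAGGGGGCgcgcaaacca
Site between Tox and Car8, plus strand, chr4:7987957-7987988: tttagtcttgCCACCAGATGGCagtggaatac
Site between Arrdc4 and Nr2f2, minus strand, chr7:69957839-69957870: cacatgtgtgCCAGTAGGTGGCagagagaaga
Their anchors held 47 and 16 CTCF HiChIP ends in ESC and NCC at the first site, 15 and 27 at the third and 17 and 25 at the fourth. The second site lay in an anchor in ESC CTCF HiChIP, with 46 ends, and in no anchor of the other 5 tables. Hi-C anchors held 482 and 225 ends at the first site in ESC and NCC, 56 and 104 at the third, and 165 and 162 at the fourth. These are sequence matches, and CTCF binding at them was not measured apart from HiChIP.

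Deserts differed less by their neighbours than by GC. The 21 deserts beside developmental regulators had a median of 4.32 ends per kb in ESC Hi-C and 4.17 in NCC Hi-C. The 115 beside genes on the list of cadherins, protocadherins and similar genes had 2.88 and 2.79. The 95 with no listed neighbour had 2.98 and 2.69. Both groups were close to the medians of all deserts. In contrast, the 116 deserts of GC below the desert median had 1.98 and 1.72, and the 116 at or above it had 5.17 and 3.83. The 18 deserts with less than 50% of their bases in a gene body had 5.66 and 5.27, and the 8 with 50% or more had 2.69 and 2.63. Single deserts had 3.76 and 3.07, deserts in runs of 2 had 2.41 and 2.43, and deserts in longer runs had 3.15 and 2.51.

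Desert ends were more often in pairs of 1 to 50 Mb, and less often in pairs under 100 kb other than those inside 1 anchor, than the ends of TSS bins. In ESC Hi-C, 24.5% of desert ends belonged to pairs inside a single anchor, 12.2% to other pairs under 20 kb, 11.1% to pairs of 20 to 100 kb and 20.9% to pairs of 100 kb to 1 Mb. Pairs of 1 to 5 Mb took 8.61%, pairs of 5 to 50 Mb 10.1%, pairs of 50 Mb or more 1.12% and inter-chromosomal pairs 11.5%. In TSS bins, pairs of 20 to 100 kb took 16.6% and pairs of 1 to 5 Mb 5.41%. The desert share over the TSS-bin share was lowest at 20 to 100 kb, at 0.650 to 0.821 in the 6 tables, and highest at 1 to 5 Mb, at 1.54 to 1.73. At 5 to 50 Mb it was 1.33 and 1.296 in Hi-C and 1.12 to 1.198 in HiChIP. At 50 Mb or more it was 1.02 and 1.099 in Hi-C and 0.842 to 0.920 in HiChIP. Pairs inside a single anchor also took a larger share in deserts in Hi-C, 1.18 times in ESC and 1.15 times in NCC, and 0.940 to 1.099 times in HiChIP. Inter-chromosomal pairs took a larger share in deserts in Hi-C, 1.14 times in ESC and 1.13 times in NCC, and 0.893 to 0.988 of the TSS-bin share in HiChIP.

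Beside TSS bins of the same GC bands, weighted by desert ends and open from 42% up, the difference in distances was smaller. Pairs of 1 to 5 Mb were still more frequent in deserts in every table. Their share was 1.21 times that of TSS bins in ESC Hi-C, 1.28 times in NCC Hi-C, 1.15 and 1.14 times in FGFR1 HiChIP and 1.16 and 1.21 times in CTCF HiChIP. Pairs of 100 kb to 1 Mb were 1.04 to 1.12 times as frequent. At 5 to 50 Mb the surplus was gone, with 0.959 to 1.003 times the share, and pairs of 50 Mb or more took 0.879 to 0.910 of it. Inter-chromosomal pairs took 0.878 to 0.948 of the share of those TSS bins, so the direction seen in Hi-C against all TSS bins turned. From ESC to NCC, the desert share of inter-chromosomal ends went from 11.5% to 13.0% in Hi-C and the share of pairs of 50 Mb or more from 1.12% to 1.86%, log2 ratios of 0.18 and 0.73. In TSS bins these log2 ratios were 0.20 and 0.63.

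**Figure D3:**
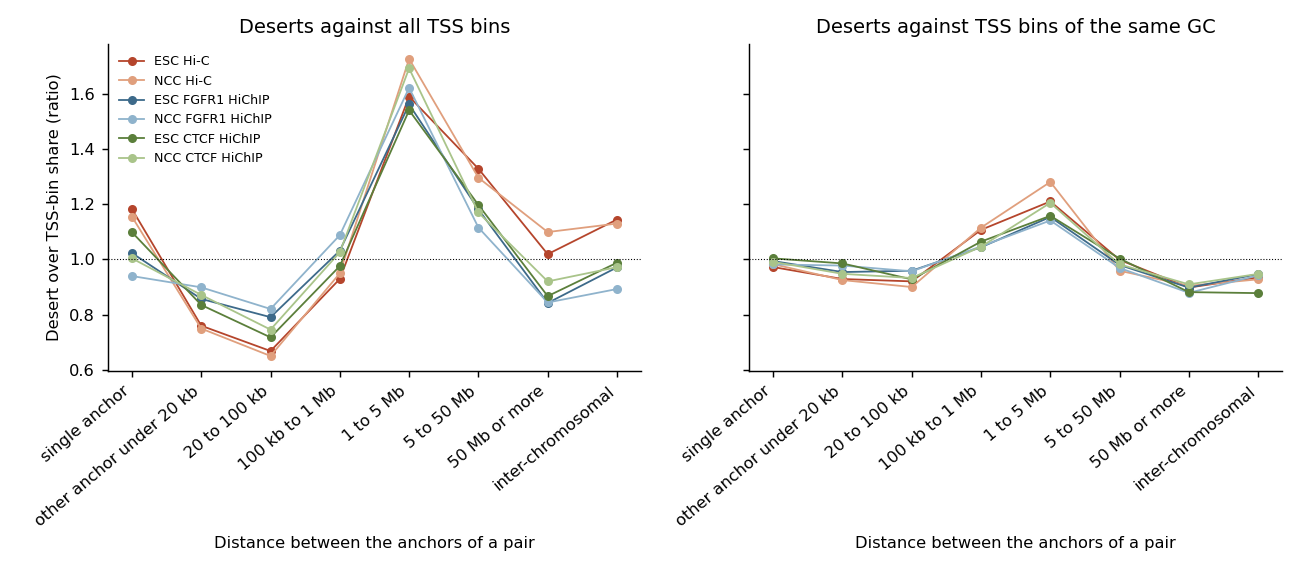
Share of ends in each class of distance in deserts divided by the share in TSS bins (ratio, 1 at the dotted line), for the 6 tables, against all TSS bins (left) and TSS bins weighted to the GC of desert ends (right). The ratio at 1 to 5 Mb is 1.54 to 1.73 on the left and 1.14 to 1.28 on the right.

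Deserts on the same chromosome contacted each other over more than 5 Mb more often than the totals of their bins gave. The expected number came from the long-range totals of both bins within each distance, in bands of 1 Mb, chromosome by chromosome. The 1400 pairs of deserts held 2863 read pairs in ESC Hi-C where 1687 were expected, 1.697 times (interval 1.64 to 1.76). In NCC Hi-C, 2302 read pairs were 1.69 times the expected number (1.62 to 1.76), so the intervals of the cell types overlapped. FGFR1 HiChIP gave 1.47 times (1158 read pairs) in ESC and 1.40 times (2145) in NCC, and CTCF HiChIP gave 1.49 times (354) and 1.46 times (482). Contacts were above expectation on 19 of 19 chromosomes in ESC Hi-C and both CTCF HiChIP tables, and on 18 of 19 in the other 3 tables. Some chromosomes in CTCF HiChIP had very few read pairs. Chromosome 19 had 1 in ESC where 0.703 was expected, and chromosome 13 had 2 in NCC where 1.52 were expected. In ESC Hi-C, 616 of the 1400 pairs of deserts (44%) had no read pair.

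The value fell with the number of genes in the partner. In ESC Hi-C, contacts of deserts with TSS bins of 1 or 2 genes were 1.55 times the expected number, with bins of 3 to 19 genes 0.955 times, and with bins of 20 or more genes 0.598 times. In the other 5 tables these values were 1.27 to 1.49, 0.900 to 0.970 and 0.613 to 0.673. TSS bins of 1 or 2 genes contacted each other 1.43 times the expected number in ESC Hi-C and 1.18 to 1.37 times in the other tables. Pairs of TSS bins at the GC of the deserts were also in contact more than expected, 1.46 times in ESC Hi-C and 1.22 to 1.41 times in the other tables. Desert pairs exceeded these by 1.17 times (interval 1.12 to 1.21) in ESC Hi-C and 1.20 times (1.15 to 1.252) in NCC Hi-C. In HiChIP they did so by 1.14 and 1.15 times for FGFR1 and by 1.07 times (0.965 to 1.19) and 1.16 times for CTCF, in ESC and NCC. The value for ESC CTCF HiChIP was not distinguishable from 1 at this depth. These intervals carry the counting error of desert pairs alone. Below 37% GC, pairs of TSS bins had contacts of 1.65 and 1.88 times the expected number in Hi-C (291 and 248 read pairs), beside 1.697 and 1.69 for all desert pairs, 1.28 and 1.24 times in FGFR1 HiChIP and 1.64 and 1.44 times in CTCF HiChIP.

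The surplus differed by distance. In ESC Hi-C it was highest at the shortest distances, 1.93 times the expected number (interval 1.80 to 2.06) at 5 to 10 Mb, 1.79 at 10 to 25 Mb, 1.63 at 25 to 50 Mb and 1.17 (1.03 to 1.32) over 50 Mb. In NCC Hi-C it was 1.67, 2.10, 1.57 and 1.33, and over 50 Mb the HiChIP values were 0.952 to 1.14 with intervals that held 1. Between chromosomes, deserts met each other 1.74 times as often as their totals gave in ESC Hi-C (2352 read pairs, interval 1.67 to 1.81) and 1.65 times in NCC Hi-C (2013 read pairs). In HiChIP the values were 1.41 to 1.52. Pairs of TSS bins of 1 or 2 genes were also above expectation between chromosomes, 1.37 and 1.33 times in Hi-C and 1.21 to 1.46 times in HiChIP. No value at the same GC was computed between chromosomes. Long-range contacts were almost all single read pairs. With only interactions of 2 or more read pairs, 20 read pairs between deserts stayed in ESC Hi-C, 3.53 times the expected number (2.154 to 5.45), and 0 to 6 in each other table, with intervals that held 1.

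**Figure D4:**
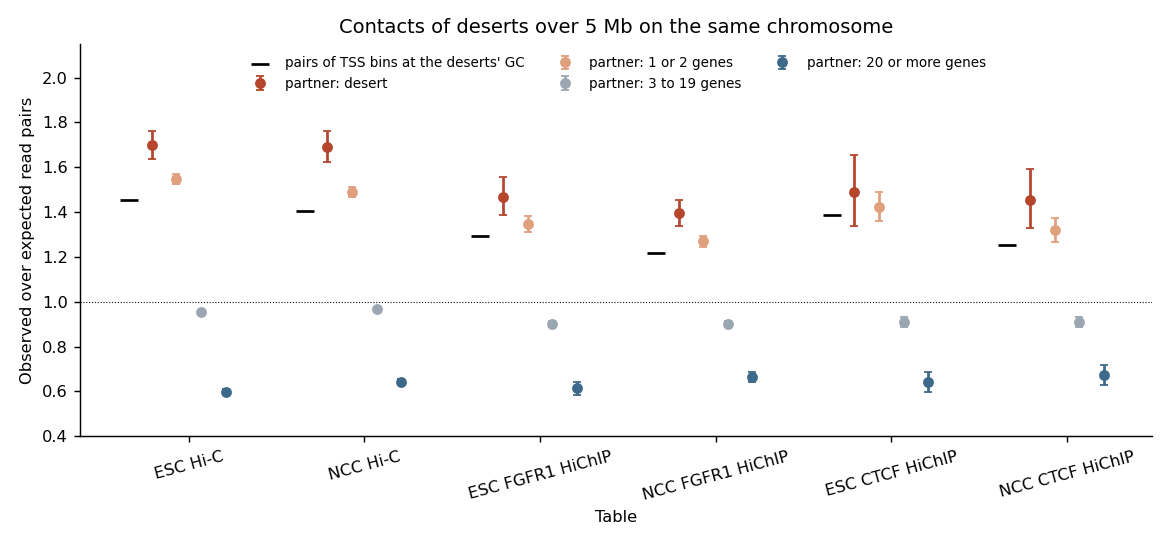
Observed over expected read pairs of deserts with other deserts and with TSS bins by number of genes, over 5 Mb apart on the same chromosome, in each table; bars are exact Poisson 95% intervals and the dotted line marks 1. Horizontal strokes give the value for pairs of TSS bins at the GC of the deserts. Desert to desert values, 1.40 to 1.697, lie highest in every table and bins of 20 or more genes, 0.598 to 0.673, lowest.

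Of single pairs of deserts, 8 held at least 20 read pairs in ESC Hi-C. The highest over expectation joined chr5:126000001-127000000, between Tmem132b and Tmem132c, and chr5:133000001-134000000, between Auts2, a gene of neuronal development, and Castor2. It held 67 read pairs in ESC Hi-C, 3.11 times the expected number (interval 2.41 to 3.95), and 35 in NCC Hi-C, 1.74 times (1.21 to 2.42). FGFR1 HiChIP held 15 and 8 read pairs and CTCF HiChIP 0 and 2. Next came chr8:96000001-97000000 and chr8:103000001-104000000, the deserts between Got2 and the cadherin gene Cdh8 and between the cadherin genes Cdh11 and Cdh5, with 49 and 31 read pairs in ESC and NCC Hi-C, 2.27 and 1.75 times the expected numbers. On chromosome 10, deserts 20 Mb apart, the first between Hace1 and Grik2, a glutamate receptor gene, and the second between Lrrtm3, a synaptic adhesion gene, and Reep3, held 26 and 13 read pairs, 1.89 and 2.20 times. On chromosome 2, deserts 12 Mb apart, the second between Dok5 and Cbln4, held 28 and 40, 1.59 and 2.83 times. The fifth pair, on chromosome 18, held 20 and 13, and its intervals held 1. These pairs were picked as the highest, and their ESC Hi-C values are a description.

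Between ESC and NCC, the median desert had fewer Hi-C ends and more HiChIP ends, with each table scaled to its autosomal read pairs. The median log2 ratio of NCC over ESC was -0.21 (interval -0.35 to -0.13) in Hi-C, over 229 deserts with at least 200 ends in both tables together, and 0.00 in TSS bins. Past a log2 ratio of 0.32 in size, which is the fold called here, 50 deserts were higher (21.8%) and 103 lower (45.0%), against 9.98% and 16.4% of all bins. FGFR1 HiChIP had a median of 0.41 (0.34 to 0.50) over 230 deserts and 0.01 in TSS bins, with 132 deserts higher (57.4%) and 14 lower (6.09%) against 23.5% and 11.7% of all bins. CTCF HiChIP had a median of 0.26 (0.18 to 0.33) over 220 deserts and 0.01 in TSS bins, with 95 higher (43.2%) and 23 lower (10.5%) against 21.8% and 13.7%. The desert median was below that of TSS bins on 17 of 19 chromosomes in Hi-C, and above it on 19 of 19 in FGFR1 and 17 of 19 in CTCF HiChIP.

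TSS bins of the same GC had like shifts. Averaged over bands of GC with the weights of the deserts, the median log2 ratio of TSS bins was -0.26 in Hi-C, 0.34 in FGFR1 HiChIP and 0.25 in CTCF HiChIP. The medians of deserts averaged in the same way were -0.28, 0.42 and 0.25. The weighted share of TSS bins past the fold in Hi-C was 20.7% higher and 42.4% lower, beside the 21.8% and 45.0% of the deserts. In FGFR1 HiChIP it was 52.1% higher and 3.93% lower.

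The number of anchors moved with the Hi-C ratio. Across 229 deserts the Spearman correlation of the log2 ratio of ends with that of anchors was 0.95, a description in which both measures come from the same pairs. When only read pairs were kept whose anchors both overlap an anchor of the other table, the median of 221 deserts was -0.11 (interval -0.16 to -0.08), with 19 of the 221 higher and 58 lower past the fold, against 3.07% and 6.85% of all bins so treated. The central 80% of deserts then lay between -0.55 and 0.27, in place of -2.45 and 0.95. Anchors found in only 1 cell type are dropped here, so the narrower spread follows from the selection. With overlapping anchors, the median was 0.17 (0.14 to 0.21) in FGFR1 HiChIP, over 219 deserts, and 0.05 (-0.03 to 0.10) in CTCF HiChIP, over 143 deserts. The medians of TSS bins were -0.01, 0.03 and 0.01 in the same order of assays. Of the Hi-C anchors in deserts, 56.5% of those in ESC and 62.2% of those in NCC overlapped an anchor of the other cell type, against 83.0% of both in TSS bins.

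**Figure D5:**
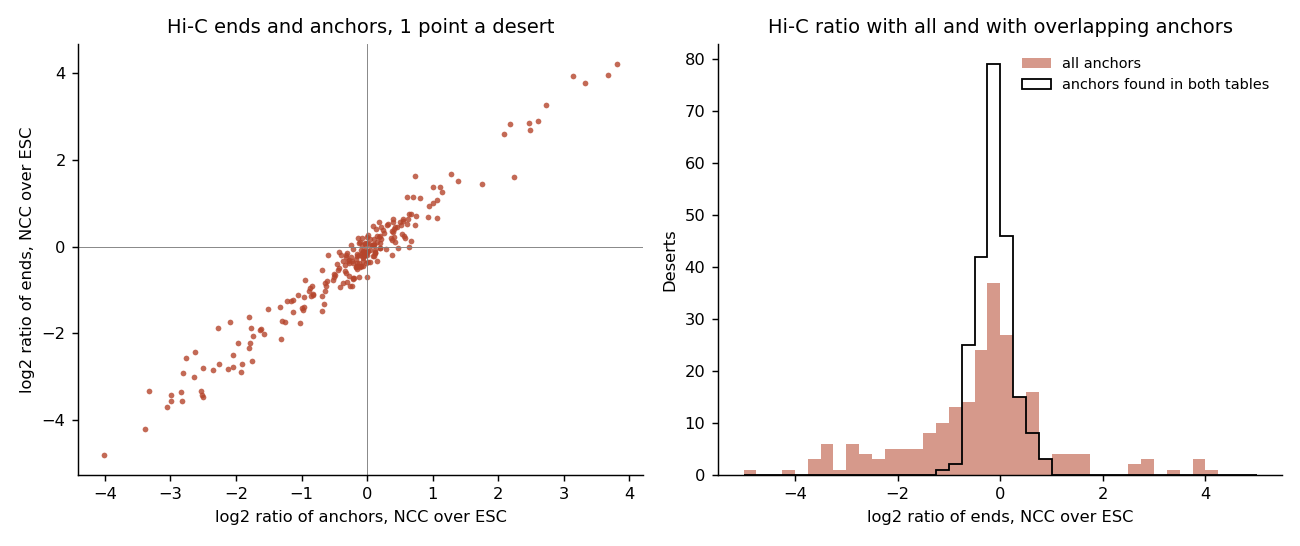
Left, log2 ratio of Hi-C ends, NCC over ESC, against the log2 ratio of the number of anchors, 1 point per desert (229 deserts). Right, number of deserts by log2 ratio of Hi-C ends (steps of 0.25), with all anchors (filled) and with anchors that overlap between the cell types (line). Ends and anchors lie along a diagonal, and the spread is narrower with overlapping anchors, a selection that drops anchors found in only 1 cell type.

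In the deserts with the largest Hi-C differences the anchors differed with the ends. The highest, chr12:94000001-95000000 between Sel1l and Flrt2, held 219 ends in ESC and 4206 in NCC, a log2 ratio of 4.23 (interval 4.03 to 4.43), with 6 and 91 anchors. In CTCF HiChIP its ends per kb were 0.415 and 0.460. With overlapping anchors its Hi-C log2 ratio was 0.82. The desert chr3:140000001-141000000, between Stpg2 and Pdha2, had a log2 ratio of 3.97 with 3 and 44 anchors. Between Tenm2, a teneurin gene, and Mat2b, chr11:38000001-39000000 held 320 and 5072 ends with 10 and 92 anchors. The desert chr2:47000001-48000000 between Zeb2, a transcription factor of neural development, and Acvr2a, an activin receptor, held 294 and 4169 ends with 8 and 85 anchors. Between Nxph1 and Ndufa4, chr6:9000001-10000000 held 336 and 3334 ends with 10 and 69 anchors, and its ratio with overlapping anchors was -0.02.

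The lowest, chr5:78000001-79000000 between Igfbp7 and Adgrl3, a latrophilin adhesion receptor gene, held 2283 ends in ESC and 83 in NCC Hi-C, a log2 ratio of -4.81 (interval -5.15 to -4.50), with 56 and 3 anchors. Its ends per kb were 0.846 and 0.799 in FGFR1 HiChIP and 0.205 and 0.245 in CTCF HiChIP. The desert chr2:123000001-124000000 between Sqor and Sema6d, a semaphorin gene of axon guidance, held 2345 and 129 ends with 57 and 5 anchors. Between Slc39a10 and Tmeff2, chr1:48000001-49000000 held 1975 and 156 ends with 45 and 5 anchors. Between Lrrtm3 and Reep3, chr10:65000001-66000000 held 2899 and 251 ends, and its ratio with overlapping anchors was 0.24. Between Fbxo33 and Lrfn5, a synaptic adhesion gene, chr12:60000001-61000000 held 3490 and 304 ends with 81 and 11 anchors. In FGFR1 HiChIP that desert held 691 and 2031 ends, more in NCC, where its Hi-C ends were fewer.

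HiChIP put a larger share of its ends in deserts than Hi-C of the same cells. FGFR1 HiChIP over Hi-C had a median log2 ratio of 1.21 (interval 1.09 to 1.36) in ESC and 1.98 (1.85 to 2.13) in NCC, over 229 and 231 deserts, against 0.12 and 0.15 in TSS bins. CTCF HiChIP over Hi-C had 0.98 (0.82 to 1.17) and 1.53 (1.35 to 1.69), over 227 and 228 deserts, against 0.10 and 0.13. Past the same fold, FGFR1 was higher in 201 deserts and lower in 3 in ESC, where 42.9% and 16% of all bins were, and higher in 218 and lower in 1 in NCC, where 47.5% and 23.3% of all bins were. CTCF was higher in 184 deserts and lower in 7 in ESC, where 38.6% and 13.5% of all bins were, and higher in 211 and lower in 2 in NCC, where 44.6% and 19.6% of all bins were. The desert median was above the TSS-bin median on 19 of 19 chromosomes in all 4 comparisons. Comparisons within a cell type share their Hi-C table.

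TSS bins of the same GC had like ratios. Averaged over bands of GC with the weights of the deserts, their medians were 1.10 and 1.80 for FGFR1 HiChIP over Hi-C and 0.99 and 1.49 for CTCF HiChIP over Hi-C, in ESC and NCC. The medians of deserts averaged in the same way were 1.19 and 1.89 for FGFR1 and 1.04 and 1.501 for CTCF. The weighted share of TSS bins higher past the fold was 88.3% and 93.9% for FGFR1 and 83.8% and 91.1% for CTCF. Weighted in the same way, the share of deserts was 87.5% and 94.4% for FGFR1 and 80.9% and 92.7% for CTCF. Across TSS bins, the Spearman correlation of GC content with these ratios was -0.83 to -0.94, and across deserts it was -0.44 to -0.61. The part of GC in these ratios was not tested.

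The deserts with the highest HiChIP over Hi-C were chosen on a ratio that has Hi-C as its denominator, which favours few Hi-C ends. For FGFR1 in ESC they included chr8:7000001-8000000, with log2 ratio 6.36, and chr6:74000001-75000000. For FGFR1 in NCC they were both deserts between Slc10a2 and Efnb2 and chr1:49000001-50000000 between Slc39a10 and Tmeff2. For CTCF in ESC they were chr6:74000001-75000000, chr14:112000001-113000000 and chr12:94000001-95000000, and for CTCF in NCC chr5:78000001-79000000, chr6:74000001-75000000 and chr6:10000001-11000000. In chr6:74000001-75000000, Hi-C held 0.183 and 0.150 ends per kb in ESC and NCC, with 1.299 and 1.73 in FGFR1 HiChIP. In CTCF HiChIP it held 0.498 and 0.441, beside medians of 0.407 and 0.428 over all deserts.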

How the data were processed

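Hi-C and HiChIP read pairs were processed by the authors with HiC-Pro and hichipper (default settings, anchor calling on every read of a sample, no q filter, mm10; versions not given in the sources used here), and 2 biological replicates were merged. Each deposited score is a count of the read pairs that join a given pair of anchors. The paper states that numbers of valid pairs were normalized between ESC and NCC. Whether the deposited counts follow that step is not given in the sources used here. No column was left unmapped (0). Here, each end was placed in a 1 Mb bin by the midpoint of its anchor, with genes from the GENCODE annotation and sequence from RefSeq's GRCm38. Ratios between tables used ends scaled to autosomal read pairs, a pseudocount of 0.5 and bins with at least 200 ends in both tables together, and a bin was called past 1.25-fold. Expected contacts over 5 Mb came from products of bins' totals. Intervals (95%) are order-statistic (medians), Wilson (shares), exact Poisson (contacts) or Clopper-Pearson (ratios of single deserts), and cover counting error or spread over bins only. With 1 merged table per group no test was made. The code was tested on simulated data. Named deserts are the 5 highest and 5 lowest in ESC Hi-C ends per kb and in Hi-C NCC over ESC, the 3 highest in each HiChIP over Hi-C, the 3 longest runs and the 5 desert pairs with the most read pairs over expectation among those with at least 20. CTCF sites, the top anchors and overlaps were shown after their values were seen. Members and lists were chosen with earlier results of these data known. Comparisons at the same GC and with overlapping anchors were added after seeing the data. Python 3.11.15, numpy 2.4.6, pandas 2.3.3 and scipy 1.17.1 were used.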

Additional observations from a re-analysis of the deposited data

Results flagged for a closer look

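The median desert moved in opposite directions between the cell types in Hi-C and in HiChIP. Its log2 ratio of NCC over ESC was -0.211 in Hi-C, 0.412 in FGFR1 HiChIP and 0.259 in CTCF HiChIP. TSS bins of the same GC moved likewise, with -0.26, 0.34 and 0.25. With overlapping anchors the desert median in CTCF HiChIP was 0.05 (interval -0.03 to 0.10). The difference between assays was not tested, since each value rests on 1 merged table per cell type.

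A pair of called bins without a TSS held no ESC Hi-C anchor, and so were not counted as deserts, but held ends in other tables. The bin chr6:19000001-20000000 held 676 ends in NCC FGFR1 HiChIP, beside 31 in NCC Hi-C, 9 in ESC FGFR1 HiChIP, and 36 and 22 in CTCF HiChIP of ESC and NCC. The bin chr12:22000001-23000000 held 90 ends in NCC Hi-C and 23 in NCC FGFR1 HiChIP.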

How the results depend on the processing

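No paired analysis was possible because the replicates are merged in each table, and for the same reason no replicate could be left out. Of 155 values under alternatives, 95 moved by less than their interval or by less than 1.5 times for counts, 59 moved by more and 1 changed direction. That was the contact of deserts in ESC CTCF HiChIP with interactions of 2 or more read pairs, at 0 read pairs where 1.09 were expected.

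Values are in the order ESC Hi-C, NCC Hi-C, ESC FGFR1, NCC FGFR1, ESC CTCF and NCC CTCF. With medians of GC bands averaged in both classes by the number of deserts, the desert to TSS-bin ratio was 0.746, 0.709, 0.817, 0.860, 0.801 and 0.832. With only interactions of 2 or more read pairs the ratio of median ends per kb was 0.137, 0.389, 0.519, 0.365 and 0.380 in the 5 tables after the first. That setting took median coverage of deserts to 13.3%, 20.2%, 6.24% and 6.28% in the HiChIP tables, and the share of ends in pairs of 1 Mb or more or between chromosomes to 0.960%, 1.14%, 0.561%, 0.802%, 0.715% and 0.639%. Without the top 1 percent of anchors this share was 30.7%, 33.3%, 30.2%, 32.6%, 27.0% and 32.9%.

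Desert contacts over 5 Mb were 2.62, 2.58, 1.83, 1.56, 1.85 and 1.78 times the expected number with totals of all ends, and 3.53, 1.58, 2.40, 1.15, 0 and 1 times with interactions of 2 or more read pairs. Without bands of distance they were 1.62 and 1.51 times in FGFR1 HiChIP of ESC and NCC. Against TSS-bin pairs of the same GC they were 1.17, 1.20, 1.14, 1.15, 1.07 and 1.16 times.

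With overlapping anchors the median log2 ratio of NCC over ESC was -0.11 in Hi-C, 0.17 in FGFR1 and 0.046 in CTCF HiChIP. With interactions of 2 or more read pairs it was 0.029 in CTCF HiChIP, and that of FGFR1 HiChIP over Hi-C in NCC was 2.21. Past 1.5-fold, 33 deserts were higher (14.4%) and 80 lower (34.9%) in NCC Hi-C, against 4.80% and 9.86% of all bins. In NCC FGFR1 HiChIP 90 were higher (39.1%) and 5 lower (2.17%), against 10.4% and 1.34%, and in NCC CTCF HiChIP 63 higher (28.6%) and 7 lower (3.18%), against 9.41% and 3.35%. HiChIP over Hi-C past 1.5-fold was higher in 182 and lower in 1 desert for ESC FGFR1, against 30.3% and 4.85% of all bins, 213 and 0 for NCC FGFR1 (39.0% and 13.2%), 159 and 3 for ESC CTCF (25.4% and 3.06%) and 201 and 0 for NCC CTCF (34.4% and 7.53%). The cause of these shifts was not tested. Long-range values of single deserts are limited by few read pairs, most of them alone in their interaction.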
